A study of Mus musculus with 6 samples.

Results

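Collagen hydroxylases and lysyl oxidases are the enzymes that modify collagen chains, first inside the secretory pathway and then outside the cell. The 10 genes described here were taken from a list of such enzymes, and all 10 were among the 17068 genes in the filtered count table. They are the collagen prolyl 4-hydroxylase subunits P4ha1, P4ha2, P4ha3 and P4hb, the lysyl hydroxylases Plod1, Plod2 and Plod3, and the lysyl oxidases Lox, Loxl1 and Loxl2. The data are bulk RNA-Seq of the lateral cortex at embryonic day 12.5, from 6 female embryos on a C57/BL6 background, and the study asked how transcription changes when the transcription factor Foxp1 is removed from early radial glia. The 4 control libraries came from embryos without Cre, of which controls 1, 2 and 4 were Foxp1 fl/+ and control 3 was Foxp1 fl/fl. The 2 libraries labelled Foxp1cKO came from Foxp1 fl/fl;Emx1Cre embryos. Every embryo thus carried at least 1 floxed Foxp1 allele, and the groups differed in Cre as well as, for 3 controls, in the number of floxed alleles. Emx1 drives Cre in the progenitors of the dorsal telencephalon, so the cells of vessels, meninges and blood in the dissected tissue lie outside the lineage in which Cre is active.

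Fibrillar and basement membrane collagens are made in the endoplasmic reticulum, where a prolyl 4-hydroxylase built of alpha and beta subunits hydroxylates proline residues and so lets the triple helix hold at body temperature. The alpha subunits (P4ha1, P4ha2 and P4ha3) carry the catalytic site, and the beta subunit, protein disulfide isomerase (P4hb), keeps them soluble and also folds many other proteins. Lysyl hydroxylases prepare lysine residues for glycosylation and cross-linking, and lysyl oxidases, secreted copper enzymes, then oxidize lysines so that chains become covalently joined. Both kinds of hydroxylase use oxygen and 2-oxoglutarate, and P4ha1, P4ha2, Plod2, Lox and Loxl2 are textbook targets of the hypoxia-inducible factors (HIF). In the embryonic cortex collagens are known mainly from the basement membranes of vessels and pia and from the meninges.

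Total counts ran from 50076008 to 78346979 per library. Levels are given as CPM, a gene's counts scaled by the total of its library after TMM normalization. The least a library can show was taken as 3 counts, which equal 0.0381 to 0.0596 CPM, a floor that covers counting error only. Every member lay above this floor in every library. The targeted gene was no lower in the Foxp1cKO libraries than in the controls. Foxp1 (ENSMUSG00000030067.17) had 59.7, 60.8, 71.2 and 79.1 CPM in controls 1 to 4, and 83.2 and 76.8 CPM in the libraries labelled Foxp1cKO 1 and 2. Its log2 fold change was 0.24 (SE 0.129, adjusted p = 0.468, edgeR's quasi-likelihood test), and for this reason the text names libraries as they were labelled. The count covers all exons of Foxp1, and the floxed part was not counted separately. Radial glia and neuron markers were abundant in both groups, with summed levels of 2198 to 2767 and 2725 to 4918 CPM in the controls and 2493 to 2549 and 3611 to 3677 CPM in the libraries labelled Foxp1cKO (led by Vim and Nes, and by Map2 and Dcx), while Sox2 and Tubb3 were not analysed here.

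The start regions of 6 members were read from RefSeq (GRCm38.p6), from 250 bases before to 50 bases after the start of the gene, and searched for the core of the HIF binding site, ACGTG or GCGTG, on both strands, so that CACGT and CACGC count as well. A palindromic E-box, CACGTG, holds this core on both strands and would be counted as 2 sites. The core occurred in 43.8% of all 32851 start regions of the same length, in 3 or more copies in 8.93% of them and in 4 or more copies in 3.86%. P4ha1 had 3 sites, P4ha2 had 4, P4hb had 3, Plod1 had 2, Plod3 had 4 and P4ha3 had 0. The start regions of Plod2, Lox, Loxl1 and Loxl2 were not used here. Windows of 30 bases around the sites of P4ha1 and P4ha2 are shown because these alpha subunits had the smallest and the third smallest p-values of the 10 members, and 1 window each of P4hb and Plod3 is shown as an example of the same core in members whose values overlapped between the groups. The sequences run 5′ to 3′ on the strand of the gene, with the core in capitals, and the start is the one in RefSeq, which for P4ha2 differs from the GENCODE start given with its values.
P4ha1, chr10:59323121-59323150, plus strand, core 163 bases before the start: acgggaacggtgGCGTGgcaggagctctgc
P4ha1, chr10:59323158-59323187, plus strand, core 126 bases before the start: cactgcgtcctcGCGTGggccagcctaggc
P4ha1, chr10:59323268-59323297, plus strand, core 16 bases before the start: tgtgacagagcgCACGTagcgagggctgcg
P4ha2, chr11:54100805-54100834, plus strand, core 107 bases before the start: tggtgccggtccCACGCggcgcaaggaggt
P4ha2, chr11:54100834-54100863, plus strand, first core 78 bases before the start: tgtgcatcgcatACGTGcagcGCGTGgcgg
P4ha2, chr11:54100922-54100951, plus strand, core at base 11 of the gene: cgggaggtggggACGTGgcggaggctcaag
P4hb, chr11:120573292-120573321, minus strand, core 56 bases before the start: tccgcccactgcCACGTtcgacggagaatc
Plod3, chr5:136986953-136986982, plus strand, core 54 bases before the start: cttgaagtcattACGTGatgttcccttgga
A match of these letters is a description of the sequence and not a binding site.

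Of the 10 members, P4ha1 alone passed edgeR's test between the groups. Genes were tested with edgeR's quasi-likelihood method, and a gene was called where its p, adjusted by Benjamini-Hochberg for all 17068 genes, was under 0.05. By this test 0.152% of all genes were called (26 genes, each with the higher mean in Foxp1cKO), against 1 of the 10 members. Another 3 members, P4ha2, Plod2 and Loxl2, had means 1.97 to 2.90 times those of the controls without passing the adjusted threshold. Both libraries labelled Foxp1cKO lay above all 4 controls for P4ha1, P4ha2, Plod2 and Loxl2, a pattern that 11.5% of all genes showed, and 0 members lay below all controls, against 13.1% of all genes. Groups without overlap in either direction thus numbered 4 of 10 members and 24.6% of all genes. An unadjusted p under 0.05 in the higher direction was found for the same 4 members and for 6.53% of all genes, and in the lower direction for 0 members and 6.50% of all genes. DESeq2, run as an alternative, called the same 4 members higher, and 2.06% of all genes that it tested. The median log2 fold change of the members was 0.059, with 5 higher and 5 lower, and that of all genes was -0.0044. The 4 genes were spread over the enzyme families, with 2 alpha subunits, 1 lysyl hydroxylase and 1 lysyl oxidase. In bulk tissue, more cells of a type and more RNA per cell cannot be told apart. The paper lists both P4ha1 and P4ha2 among its top upregulated genes, from a DESeq2 model that held litter. It describes its controls as littermates without Cre, but the labels do not say which embryos shared a litter. The p-values given here therefore leave litter out and set the difference between the groups against the spread between these libraries.

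**Figure D1:**
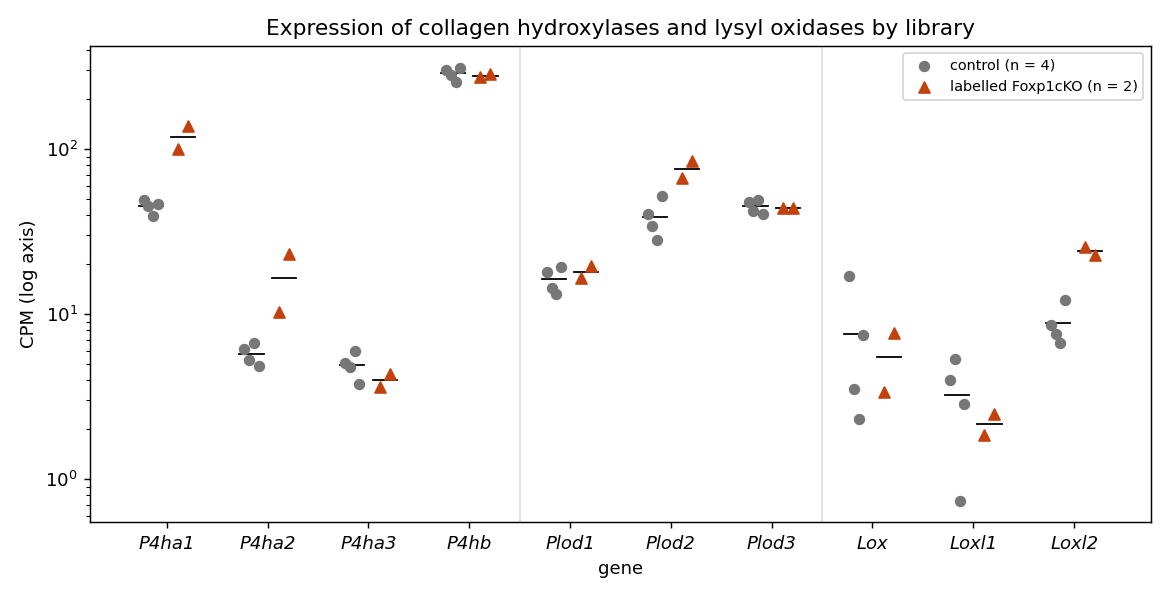
Level of each member in each library, as CPM on a log axis, with 4 control libraries (circles), 2 libraries labelled Foxp1cKO (triangles) and lines at the group means. For P4ha1 the controls sit between 39.5 and 49.1 CPM and the triangles at 99.99 and 138 CPM, whereas for P4hb both groups sit between 255 and 312 CPM.

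P4ha1 (ENSMUSG00000019916.14, chromosome 10, 59323296 to 59373304, GRCm38, plus strand) encodes the main catalytic subunit in most tissues. It had 49.1, 45.2, 39.5 and 46.8 CPM in controls 1 to 4, and 99.99 and 138 CPM in the libraries labelled Foxp1cKO 1 and 2. The controls were close together and both libraries labelled Foxp1cKO were far above them. P4ha1 rose from 45.1 ± 4.09 (SD, n = 4) to 119 ± 26.6 CPM (SD, n = 2), a log2 fold change of 1.40 (SE 0.140, 95% interval 1.07 to 1.73, adjusted p = 0.0207). Over the 8 pairs of 1 library labelled Foxp1cKO and 1 control, the log2 difference was 1.03 to 1.80. The pairs reuse the same libraries, so their shared direction only restates that the groups did not overlap. The call depended on single libraries, since the adjusted p was 0.0956 without control 1, 0.112 without control 2 and 0.149 without Foxp1cKO 2, where the log2 fold change was 1.13.

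P4ha2 (ENSMUSG00000018906.14, chromosome 11, 54100095 to 54131665, plus strand) encodes a second alpha subunit, known from cartilage and other skeletal tissue. It had 6.12, 5.28, 6.65 and 4.86 CPM in the controls, and 10.2 and 23.0 CPM in the libraries labelled Foxp1cKO 1 and 2. The groups did not overlap, but the libraries labelled Foxp1cKO differed from each other by a factor of 2.25. The means were 5.73 ± 0.808 (SD, n = 4) and 16.6 ± 9.06 CPM (SD, n = 2), and the log2 fold change was 1.54 (SE 0.302, 95% interval 0.83 to 2.25, unadjusted p = 0.00138, adjusted p = 0.206 by edgeR). DESeq2 called P4ha2 with an adjusted p of 0.000375. Without Foxp1cKO 2 the log2 fold change by edgeR was 0.82, and without Foxp1cKO 1 it was 2.01.

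P4ha3 (ENSMUSG00000051048.17, chromosome 7, 100285520 to 100319699, plus strand) encodes the third alpha subunit. It had 5.04, 4.76, 5.97 and 3.78 CPM in the controls and 3.62 and 4.35 CPM in the libraries labelled Foxp1cKO. These ranges overlapped, and the log2 fold change was -0.29 (SE 0.224, 95% interval -0.82 to 0.24, adjusted p = 0.604 by edgeR).

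P4hb (ENSMUSG00000025130.11, chromosome 11, 120560298 to 120573253, minus strand), the beta subunit, had 303, 280, 255 and 312 CPM in the controls and 272 and 285 CPM in the libraries labelled Foxp1cKO. Both libraries lay within the range of the controls. The log2 fold change was -0.045 (SE 0.0979, 95% interval -0.28 to 0.19, adjusted p = 0.879 by edgeR), an interval that does not reach the lower bound for P4ha1.

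**Figure D2:**
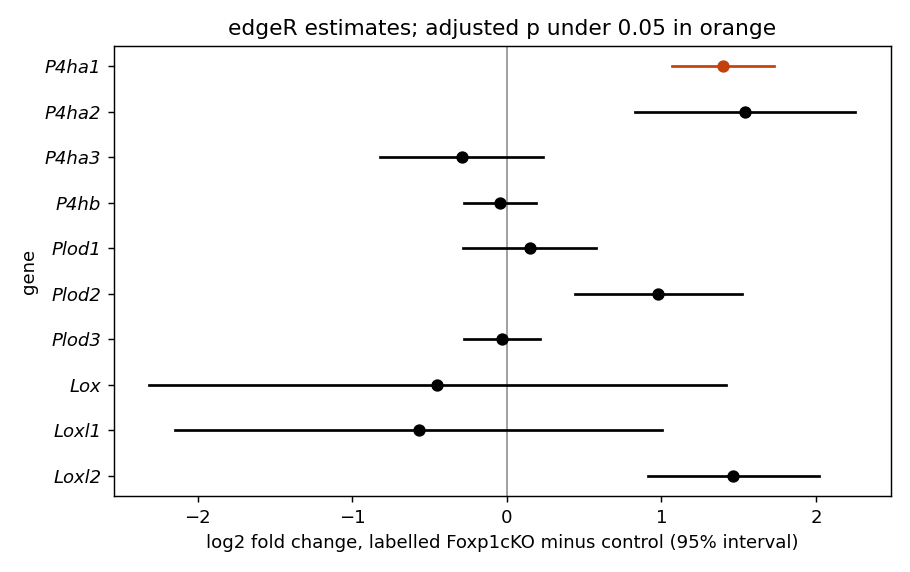
Log2 fold change of each member with its 95% interval from edgeR, as the libraries labelled Foxp1cKO minus controls, with the gene past the adjusted threshold in orange. P4ha1 is at 1.40 with a short interval, P4ha2, Plod2 and Loxl2 have intervals above 0, and those of Lox (-2.31 to 1.41) and Loxl1 (-2.14 to 1.00) are the widest of the 10.

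The balance of alpha to beta subunit mRNA was compared within each library, on a scale of counts divided by the exon length of the gene in kilobases, so that it does not depend on library size. Summed P4ha1, P4ha2 and P4ha3 over P4hb was 0.137, 0.136, 0.141 and 0.123 in controls 1 to 4, and 0.285 and 0.387 in the libraries labelled Foxp1cKO 1 and 2. The control values were close together, and the mean ratio was 2.50 times higher in Foxp1cKO (0.336 ± 0.0728, SD, n = 2, against 0.134 ± 0.00809, SD, n = 4). With 4 libraries against 2 the exact two-sided permutation test cannot go below p = 0.133, which is the value obtained, and 0.163 after Benjamini-Hochberg adjustment over the 11 shares and ratios compared. The summed alpha subunit level was 13.4 ± 0.803 CPM per kilobase in the controls (n = 4, ± SD) against 32.8 ± 8.09 in Foxp1cKO (n = 2). Of that difference of 19.4 CPM per kilobase, P4ha1 made up 17.9 and P4ha2 1.75, and P4ha3 -0.289. The share of P4ha1 in the alpha subunit sum was 82.2, 82.3, 76.4 and 85.1% in the controls, and 89.7 and 86.8% in the libraries labelled Foxp1cKO. That of P4ha3 was 9.04 to 15.2% in the controls and 4.26 and 3.60% in the libraries labelled Foxp1cKO, and that of P4ha2 overlapped between the groups, with 5.84 to 8.49% against 6.05 and 9.58%. Without division by exon length, the mean share of P4ha1 was 4.76 percentage points higher in Foxp1cKO, with an exact permutation p of 0.267. On that scale the groups overlapped, so the separation of the P4ha1 share depended on the division by length.

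**Figure D3:**
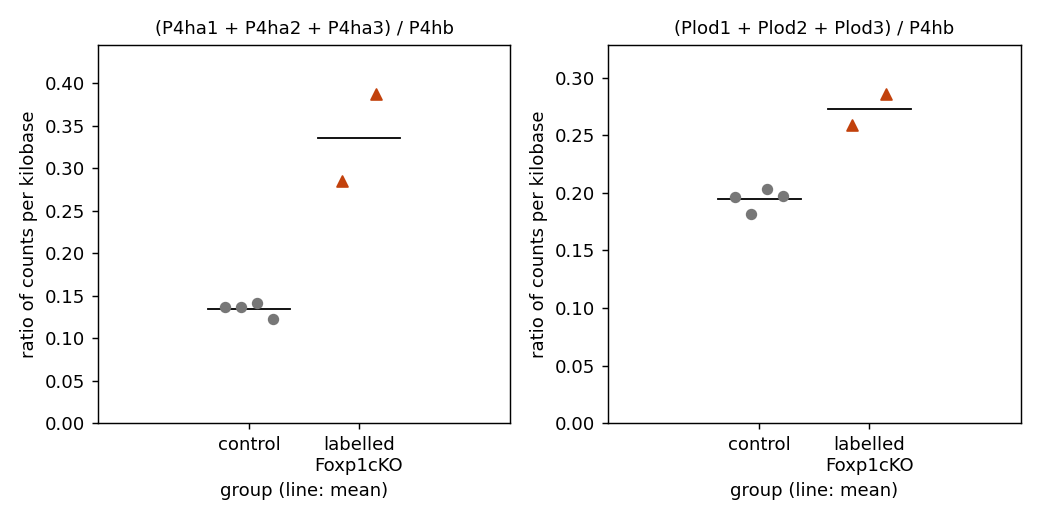
Ratio of the summed alpha subunits to P4hb (left) and of the summed lysyl hydroxylases to P4hb (right) in each library, from counts per kilobase of exon, with lines at the group means. On the left the 4 controls lie between 0.123 and 0.141 and the 2 libraries labelled Foxp1cKO at 0.285 and 0.387, and on the right the controls lie between 0.182 and 0.203 and the others at 0.259 and 0.286.

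Among the lysyl hydroxylases, Plod2 alone had both libraries labelled Foxp1cKO above all controls. Plod2 (ENSMUSG00000032374.14, chromosome 9, 92542223 to 92608428, plus strand) encodes the enzyme that hydroxylates the telopeptides of collagen, the ends from which cross-links form. It had 40.4, 34.1, 28.1 and 51.9 CPM in controls 1 to 4, and 67.1 and 85.2 CPM in the libraries labelled Foxp1cKO. The groups did not overlap, and control 4 was nearest to the libraries labelled Foxp1cKO. The means were 38.6 ± 10.2 (SD, n = 4) and 76.2 ± 12.8 CPM (SD, n = 2), and the log2 fold change was 0.98 (SE 0.230, 95% interval 0.44 to 1.52, unadjusted p = 0.00366, adjusted p = 0.242 by edgeR). DESeq2 gave an adjusted p of 0.00548. Plod2 shares 346 exonic bases with Gm38391 on the opposite strand, and whether the counting used strand is not given in the sources used here.

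Plod1 (ENSMUSG00000019055.15, chromosome 4, 147909753 to 147936767, minus strand) encodes the enzyme for lysines within the helix. It had 18.1, 14.4, 13.1 and 19.3 CPM in the controls, and 16.6 and 19.5 CPM in the libraries labelled Foxp1cKO. Its log2 fold change was 0.15 (SE 0.182, 95% interval -0.28 to 0.58, adjusted p = 0.762 by edgeR). Plod3 (ENSMUSG00000004846.10, chromosome 5, 136987019 to 136996648, plus strand) encodes an enzyme that also attaches sugars to hydroxylysine, and it had 48.0, 42.1, 49.5 and 40.6 CPM in the controls, and 44.1 and 44.0 CPM in the libraries labelled Foxp1cKO. Both of the latter lay inside the control range, and the log2 fold change was -0.031 (SE 0.104, 95% interval -0.28 to 0.21, adjusted p = 0.929 by edgeR). Plod3 shares 538 exonic bases with Znhit1 and Mir702.

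By level per kilobase, Plod3 was the most abundant lysyl hydroxylase in 3 of 4 controls and Plod2 in both libraries labelled Foxp1cKO. Plod3 made up 51.1, 52.4, 60.5 and 41.8% of the lysyl hydroxylase sum in controls 1 to 4, and 39.6 and 34.3% in the libraries labelled Foxp1cKO. Plod2 made up 36.04, 35.6, 28.8 and 44.8% in the controls, and 50.5 and 55.6% in the libraries labelled Foxp1cKO. Plod2 was thus above Plod3 in both libraries labelled Foxp1cKO and in control 4, and below it in the other controls. The summed level was 19.5 ± 1.87 CPM per kilobase in the controls (n = 4, ± SD) against 26.5 ± 2.67 in Foxp1cKO (n = 2), and of the difference of 7.01 Plod2 made up 6.96. The exact permutation p was 0.133 for each of the 3 shares, again the smallest that it can be.

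**Figure D4:**
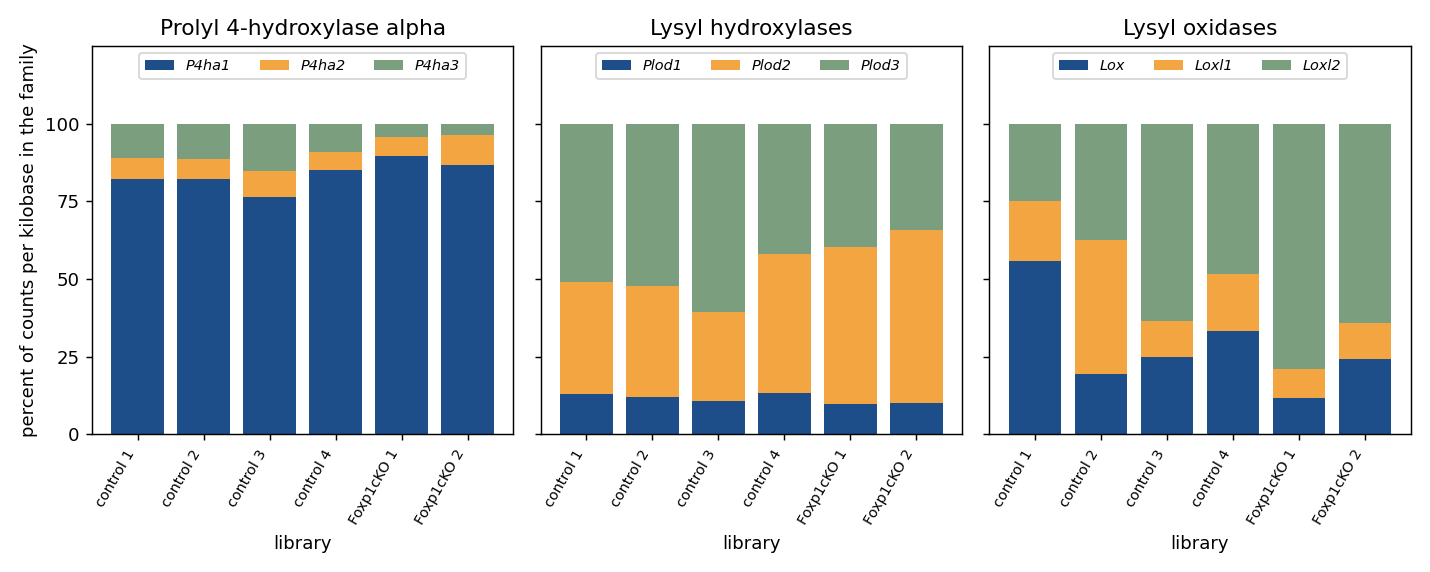
Share of each member in the summed counts per kilobase of its family, in percent, with 1 stacked bar per library. In the libraries labelled Foxp1cKO the share of P4ha3 is 4.26 and 3.60%, that of Plod2 50.5 and 55.6%, and that of Loxl2 79.0 and 64.2%.

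Of the lysyl oxidases, Loxl2 stood apart between the groups, and the values of Lox and Loxl1 overlapped. Loxl2 (ENSMUSG00000034205.16, chromosome 14, 69609068 to 69695834, plus strand) encodes an oxidase known to act on collagen IV of basement membranes and to be made by endothelial cells. It had 8.59, 7.60, 6.67 and 12.3 CPM in controls 1 to 4, and 25.6 and 22.9 CPM in the libraries labelled Foxp1cKO. The lower of the libraries labelled Foxp1cKO was above the highest control, control 4. The means were 8.78 ± 2.45 (SD, n = 4) and 24.3 ± 1.93 CPM (SD, n = 2), and the log2 fold change was 1.47 (SE 0.233, 95% interval 0.92 to 2.02, unadjusted p = 0.000398, adjusted p = 0.113 by edgeR). Without control 4 edgeR called Loxl2, with an adjusted p of 0.0125, and DESeq2 on all 6 libraries gave 1.6e-06. Loxl2 shares 308 exonic bases with Mir6950, Gm27177 and Gm37513.

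Lox (ENSMUSG00000024529.13, chromosome 18, 52516067 to 52529867, minus strand) encodes the founding member of the family, which joins collagen and elastin fibres. It had 16.95, 3.49, 2.32 and 7.51 CPM in controls 1 to 4, and 3.36 and 7.67 CPM in the libraries labelled Foxp1cKO. Control 1 was the highest library and control 3 the lowest, and both libraries labelled Foxp1cKO lay between them. The log2 fold change was -0.45 (SE 0.790, 95% interval -2.31 to 1.41, adjusted p = 0.845 by edgeR), and it was 0.30 without control 1 and 0.021 without Foxp1cKO 1. Lox shares 30 exonic bases with AC161119.1 on the opposite strand. Loxl1 (ENSMUSG00000032334.10, chromosome 9, 58287738 to 58313186, minus strand), known for elastic fibres, had 4.00, 5.33, 0.741 and 2.83 CPM in the controls, and 1.85 and 2.48 CPM in the libraries labelled Foxp1cKO. Its log2 fold change was -0.57 (SE 0.667, 95% interval -2.14 to 1.00, adjusted p = 0.750 by edgeR). It ran from -0.22 without control 2 to -0.92 without control 3 (adjusted p = 0.943 and 0.227), and was -0.38 without Foxp1cKO 1. The intervals of Lox and Loxl1 include both a loss and a gain as large as a log2 fold change of 1.00. A difference of that size in either direction is thus not excluded by these libraries.

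Loxl2 made up 25.02, 37.5, 63.5 and 48.3% of the lysyl oxidase sum per kilobase in controls 1 to 4, and 79.0 and 64.2% in the libraries labelled Foxp1cKO. Control 3 was close to Foxp1cKO 2, since Lox and Loxl1 were both at their lowest in control 3. The share of Lox ran from 19.5 to 55.9% in the controls and was 11.7 and 24.4% in the libraries labelled Foxp1cKO, with an exact permutation p of 0.267.

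Markers of the other cell types in the dissected tissue were set beside the members. The fibroblast list, led by the collagen chains Col3a1 and Col1a2, had 11 of 12 genes in the table and 0 called, against 0.152% of all genes. Its summed level ran from 128 to 632 CPM in the controls and was 205 and 401 CPM in the libraries labelled Foxp1cKO. Per 100 CPM of that sum, Lox was at 2.68, 1.57, 1.82 and 1.70 CPM in the controls and at 1.64 and 1.92 CPM in the libraries labelled Foxp1cKO. The libraries therefore took the same order by fibroblast markers as by Lox, with the exception of control 4 and Foxp1cKO 2, whose Lox levels were 7.51 and 7.67 CPM.

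The mural cell list (pericytes and smooth muscle, led by Notch3 and Rgs5) had 9 of 9 genes in the table and 0 called, against 0.152% of all genes. All 9 were on the higher side in the libraries labelled Foxp1cKO, against 8407 of all 17068 genes, and 4 lay above all controls, against 11.5% of all genes. The summed level was 199 to 239 CPM in the controls and 299 and 300 CPM in the libraries labelled Foxp1cKO. The endothelial list (10 of 10 in the table, led by Kdr and Pecam1) had 1 gene called, against 0.152% of all genes. This was Flt1, a receptor for Vegf. Flt1 had a log2 fold change of 1.64 (adjusted p = 0.0179 by edgeR), with 12.5 to 18.1 against 44.6 and 54.2 CPM. Of the 10 endothelial genes, 2 (Flt1 and Pecam1) lay above all controls, against 11.5% of all genes. The endothelial list was mixed, with 6 genes higher and 4 lower and a median log2 fold change of 0.014. Its sum, which includes Flt1, was 150 to 230 against 208 and 256 CPM. Red cell markers (8 of 8, led by Hbb-y and Hba-x) had sums of 1090 to 3429 CPM in the controls and 3760 and 4021 CPM in the libraries labelled Foxp1cKO, with control 4 the highest control, as it was for Plod2 and Loxl2. Per 100 CPM of mural markers, Loxl2 was at 3.35 to 5.14 CPM in the controls and at 8.57 and 7.64 CPM in the libraries labelled Foxp1cKO, and P4ha1 was at 19.6 to 21.2 against 33.4 and 45.9 CPM. Per 100 CPM of endothelial markers, Loxl2 was at 3.74 to 6.64 against 12.4 and 8.93 CPM, and P4ha1 at 21.4 to 29.3 against 48.2 and 53.7 CPM. Plod2 per 100 CPM of mural markers was at 14.1 to 21.8 CPM in the controls and at 22.4 and 28.4 CPM in the libraries labelled Foxp1cKO, so that Foxp1cKO 1 was little above control 4. P4ha2 was at 2.04 to 3.34 against 3.42 and 7.69 CPM per 100 CPM of mural markers, and at 2.64 to 4.43 against 4.93 and 8.99 CPM per 100 CPM of endothelial markers, so that Foxp1cKO 1 was little above control 3 on both scales. The sums of the other lists overlapped between the groups, with microglia (8 of 8, led by Csf1r and Cx3cr1) at 23.7 to 36.4 against 35.1 and 38.6 CPM, choroid plexus (2 of 6, Otx2 and Clic6) at 6.31 to 9.91 against 9.22 and 10.2 CPM, and ventral telencephalon (8 of 8, led by Gad2 and Dlx1) at 232 to 824 against 384 and 515 CPM. No marker in the table was at 0 in any library. Over the 6 libraries, Pearson's r of log2 CPM with the log2 mural sum was 0.98 for Loxl2, 0.97 for Plod2, 0.95 for P4ha1 and 0.77 for P4ha2. With the red cell sum it was 0.92, 0.93, 0.77 and 0.59 in the same order. Both sums differ between the groups, as these members do, and levels per red cell markers were not computed. The part of these cell types in the differences was not tested further.

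**Figure D5:**
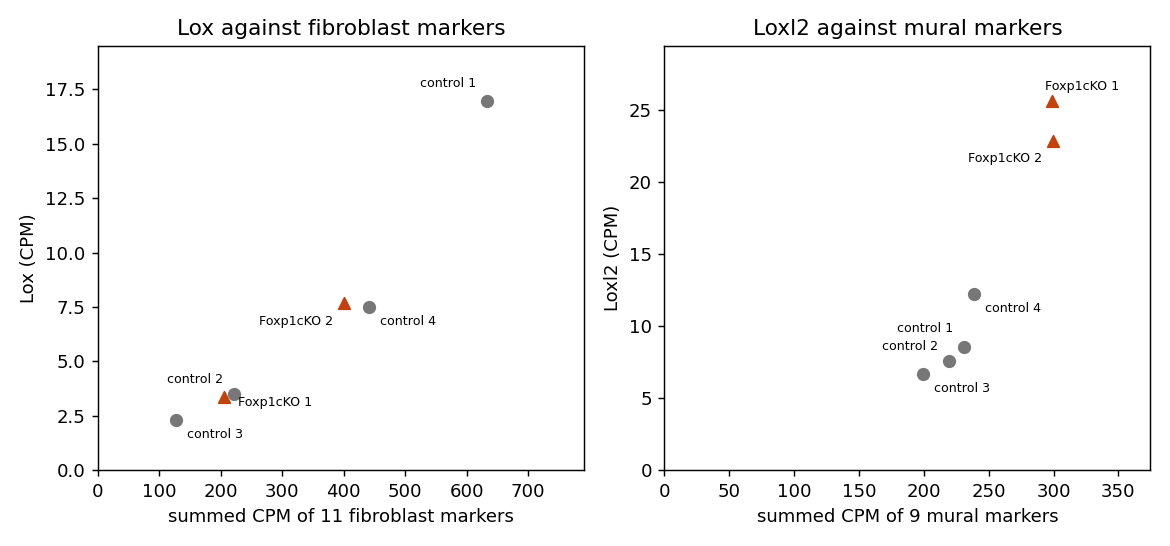
Lox against the summed level of 11 fibroblast markers (left) and Loxl2 against the summed level of 9 mural markers (right), in CPM, with 1 point per library (circles, controls; triangles, labelled Foxp1cKO). On the left the groups are mixed along the range of 128 to 632 CPM, and on the right both libraries labelled Foxp1cKO lie at higher levels of the markers and of Loxl2.

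By level per kilobase of exon, P4hb led the 10 members in the controls with a mean of 100.4 CPM per kilobase (range 89.1 to 109). P4ha1 followed at 10.96 (9.59 to 11.9), Plod3 at 9.96 (8.98 to 10.9) and Plod2 at 7.16 (5.20 to 9.62). Next came Plod1 at 2.40 (1.94 to 2.86), Loxl2 at 1.62 (1.23 to 2.27), Lox at 1.58 (0.485 to 3.55), P4ha3 at 1.56 (1.21 to 1.90), Loxl1 at 0.978 (0.225 to 1.62) and P4ha2 at 0.918 (0.780 to 1.07). The ranges of neighbours in this order overlapped, except between P4hb and P4ha1 and between Plod2 and Plod1. In the libraries labelled Foxp1cKO the means were 97.3 for P4hb, 28.9 for P4ha1, 14.1 for Plod2, 9.75 for Plod3, 4.49 for Loxl2, 2.67 for P4ha2 and 2.66 for Plod1, all in CPM per kilobase. P4ha2 thus stood lowest of the 10 in the controls, and above P4ha3, Lox and Loxl1 in the libraries labelled Foxp1cKO.

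The genes whose levels most resembled those of P4ha1 were sought by Pearson's r of log2 CPM over the 6 libraries, among 13854 genes with a mean of at least 1 CPM. The 5 highest were Adgrl4 (0.999), an adhesion receptor of endothelial cells, Kdm3a (0.997), a histone demethylase, Tnfsf9 (0.995), a ligand of the tumour necrosis factor family, Unc5b (0.994), a netrin receptor, and Slc2a1 (0.993), the glucose transporter Glut1. The libraries form separate groups for P4ha1, so r describes mainly how the genes differ between and within the groups. Their log2 fold changes were 1.05, 0.63, 0.58, 0.38 and 1.31 in the same order, which is a description, since a gene chosen for its likeness to P4ha1 differs between the groups by that choice. Among the other members Loxl2 and P4ha2 (both 0.925) and Plod2 (0.921) came closest, at positions 153, 154 and 170 of the order, and P4hb (-0.033) and P4ha3 (-0.53) were unlike P4ha1.

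The other genes of collagen maturation were given by a list of 32, of which 31 were in the table. By edgeR 0 of the 31 were called in either direction, against 0.152% of all genes. An unadjusted p under 0.05 was found for 2 of them, against 13.0% of all genes. The median log2 fold change was -0.021, with 15 higher and 16 lower. Colgalt2, a galactosyltransferase that acts on hydroxylysine, averaged 4.11 ± 0.294 CPM (SD, n = 4) among controls against 7.41 ± 2.53 CPM (SD, n = 2), a log2 fold change of 0.85 (SE 0.219, adjusted p = 0.251 by edgeR). Bmp1, which removes the C-terminal propeptides of procollagens, had 70.0 ± 5.16 against 54.1 ± 1.94 CPM, a log2 fold change of -0.37 (SE 0.0922, adjusted p = 0.242 by edgeR). DESeq2 called both, with adjusted p of 0.0198 and 0.0459, which is 2 of the list against 3.36% of all genes that it tested. Next by p were Mia3, which helps load procollagen for export, with a log2 fold change of -0.15, and Fn1, fibronectin, with 0.33. By step, edgeR called 0 of 11 genes of prolyl 3-hydroxylation and folding, 0 of 2 of collagen glycosylation and 0 of 6 of export. It also called 0 of 7 of propeptide removal and 0 of 4 of matrix assembly. With 0.152% of all genes called, a count of 0 says little about lists this short. In the same order, the median log2 fold changes were 0.017, 0.43, -0.033, -0.15 and -0.015. Loxl3, a further lysyl oxidase, had a log2 fold change of 0.16 (adjusted p = 0.674 by edgeR). Of 13 collagen chains, the substrates of these enzymes, 0 were called (0.152% of all genes) and 0 had an unadjusted p under 0.05 (13.0% of all genes), with a median log2 fold change of -0.12 and a range from -0.48 for Col1a2 to 0.41 for Col4a2.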

How the data were processed

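RNA of the lateral cortex of 6 female mouse embryos was sequenced as stranded, paired-end libraries. The authors mapped reads with STAR (mm10), obtained gene counts from HTSeq 0.9.1 (union mode) and then dropped weakly expressed genes. The deposited count table holds whole, unnormalized counts of 17068 genes, and the deposited VST values are log2-like and equal DESeq2's blind transformation of those counts to within 1.1e-10. The authors' model in DESeq2 1.30.1 held group and litter, and since the labels do not give the litter, group alone was modelled here.

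Counts were analysed in R 4.3.3 with edgeR 4.0.16 (TMM, quasi-likelihood test, all 17068 genes, Benjamini-Hochberg adjustment, threshold 0.05). CPM used the TMM-scaled library size, log2 CPM used a prior count of 2, and intervals are 95%. Alternatives were DESeq2 1.42.0, limma 3.58.1 on the VST values, DESeq2's size factors, total counts, a filter of at least 1 CPM in 2 libraries (14152 genes), each library left out, and a block of the replicate numbers, which controls and libraries labelled Foxp1cKO share for 1 and 2. The crossed block was added after seeing the data. Counts of control pairs differed with a chi-square of 25.9 to 193 per gene, and those of the libraries labelled Foxp1cKO with 31.4, so no library was counted as a copy. Exact permutation tests of shares and ratios used Python 3.11.15. Symbols, positions and exon lengths came from GENCODE M21 (GRCm38, the assembly of mm10), matched by Ensembl ID without version: 17047 identifiers were found and 21 were not. Another annotation release was used by the authors.

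The members and lists were chosen with earlier results of these data known. Genes named are the 10 members, Foxp1, genes of the maturation list past the threshold and its 4 smallest p-values, the 5 genes most like a called member, and the 2 most abundant markers of each list. Flt1, Loxl3, Col4a2 and Adamts3 were named after their values were seen. The tests were tried on simulated counts with planted changes. These held no litters and no differences in cell type, so the trial does not bear on either.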

Additional observations from a re-analysis of the deposited data

How the results depend on the processing

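P4ha1 was higher in the libraries labelled Foxp1cKO in 13 of 13 alternatives and called in 9, with log2 fold changes of 1.13 to 1.61. P4ha2, Plod2 and Loxl2 were higher in 13 of 13 and called in 2, 2 and 3 of them. For each of these 4 genes, 1 of the calls came from the crossed block, which was not planned. The remaining call of P4ha2 and of Plod2 came from DESeq2. The alternatives reuse the same libraries and are not independent of each other. DESeq2 called 507 genes in place of 26, 4 members in place of 1 (P4ha1, P4ha2, Plod2 and Loxl2) and 2 maturation genes in place of 0. The replicate block called 1 gene and 0 members (P4ha1 1.32, adjusted p = 0.192 by edgeR), and the crossed block, chosen after seeing the data, 1252 genes, 4 members and 2 maturation genes (Adamts3 and Bmp1). The same-numbered libraries share only a number, and their deviations from the group means correlated at -0.198 and 0.0157. Leaving out 1 library gave 2 to 96 genes called (2 without control 2, 3 without Foxp1cKO 2, 6 without control 1, 9 without Foxp1cKO 1, 96 without control 4) and 0 to 2 members (0 without control 1, control 2 or Foxp1cKO 2, and 2, P4ha1 and Loxl2, without control 4). The log2 fold change of Plod3 ran from -0.078 to 0.0029 (positive without control 3) and that of Lox from -1.18 to 0.30 (positive without control 1 or Foxp1cKO 1). That of Loxl1 was -1.11 with the replicate block (adjusted p = 0.214), -1.10 with the crossed block (0.0545) and -0.21 by limma. The share of P4ha2 among the alpha subunits, 0.961 percentage points higher in the libraries labelled Foxp1cKO, ran from -0.805 without Foxp1cKO 2 to 2.73 without Foxp1cKO 1. limma, DESeq2's size factors, total counts and the filter called 27, 24, 26 and 25 genes. The cause of these differences was not tested. With 2 libraries labelled Foxp1cKO, no exact test of a share can pass 0.05.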

Other observations

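The members differed in how closely the 2 libraries labelled Foxp1cKO resembled each other. Lox and P4ha2 were 2.28 and 2.25 times higher in Foxp1cKO 2 than in Foxp1cKO 1, and among 13855 genes with a mean of at least 1 CPM only 1.21 and 1.23% differed more between these libraries. For P4ha1 the ratio was 1.38, and 9.21% of genes differed more. Loxl2 went the other way, with a ratio of 0.893, and Plod3 was at 0.998, closer than 98.9% of genes. Foxp1cKO 2 thus had the higher level of P4ha1, P4ha2 and Plod2 but not of Loxl2.

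Lox and Loxl1 did not share their order among the controls, although both are oxidases of elastic fibres. Lox was highest in control 1 (16.95 CPM) and Loxl1 in control 2 (5.33 CPM), and both were lowest in control 3. Per 100 CPM of fibroblast markers, Loxl1 was at 0.633, 2.40, 0.581 and 0.642 CPM in controls 1 to 4 and at 0.902 and 0.619 CPM in the libraries labelled Foxp1cKO, so control 2 stood apart from the other 5 libraries.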
